A study of Arabidopsis thaliana with 8 samples.

Results

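SAUR (small auxin up RNA) genes are short plant genes, most of them induced quickly by auxin. They were examined here for windows bound by 7 ALOG transcription factors in bare Arabidopsis thaliana DNA. The members are the 16 protein-coding genes whose symbol in the RefSeq TAIR10.1 gene table is SAUR followed by digits alone, of 27444 protein-coding genes on chromosomes 1 to 5. A further 64 genes carry such a name in the table as a synonym and not as the symbol. They are described after the 16, and both together make 80 genes. The symbol rule used no measured value.

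The series mixed tagged ALOG proteins made by in vitro transcription and translation with amplified genomic DNA of 2-week-old seedlings (ampDAP-seq) and sequenced the DNA they retained. The proteins were LSH1, LSH2 and LSH3, which as background come from Arabidopsis, G1 from rice, LOS1 and LOS2 from the liverwort Marchantia, and TMF from tomato. An input sample was not analysed here. All proteins met the same kind of DNA, free of chromatin and methylation, so a window says what a protein can hold in a tube, and nothing of binding in a plant. Each protein has 1 list of 200 bp windows, the consensus of 3 replicates, from 6902 windows for G1 to 29555 for LOS2. With 1 list per protein there is no spread between replicates and no test of a difference, and the read depth is unknown. Shares carry 95% Wilson intervals, which cover counting error and treat genes as independent, although tandem neighbours are not.

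Many SAUR proteins bind and inhibit phosphatases of the PP2C-D group. These phosphatases otherwise switch off the proton pumps of the plasma membrane, so SAUR proteins favour acid growth and cell expansion. The genes arose largely by tandem duplication and lie in arrays of close copies. In the hypocotyl, cotyledons, leaves and stamens they act in growth that responds to auxin, light and temperature.

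A window was counted for a gene when its centre lay in the gene or within 2000 bp of either end. By this count the 16 genes held 71 windows, and 12 of the 16 had a window of at least 1 protein. LSH2 had windows at 11 of the 16 genes (68.8%, interval 44.4 to 85.8%), against 67.9% of all protein-coding genes. LSH3, LOS1 and LOS2 had windows at 10 each (62.5%, 38.6 to 81.5%), where all genes gave 59.7%, 53.6% and 77.6%. For TMF the number was 8 (interval 28.0 to 72.0%; all genes 52.8%), for LSH1 6 (37.5%, 18.5 to 61.4%; all genes 53.3%) and for G1 3 (18.8%, 6.59 to 43.0%; all genes 32.7%). By this count LOS2, whose list is the longest, thus reached no more of the 16 genes than LSH3 or LOS1 did. With any overlap of 1 bp LOS2 reached 11 genes, and LSH3 and LOS1 10 each.

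SAUR genes are short, and short genes have less room for windows. The 16 had a median length of 738.5 bp, against 2078 bp over all protein-coding genes. When the other genes were weighted to the lengths of the 16, in 10 length classes, they gave 51.8% for LSH2, 41.6% for LSH3, 38.1% for LOS1, 62.5% for LOS2, 37.1% for TMF, 37.0% for LSH1 and 21.6% for G1. These length-weighted values lay inside the interval of the SAUR share for each of the 7 proteins. Expressed as genes, 16 genes of these lengths would hold 8.28 with LSH2, 6.66 with LSH3, 6.1 with LOS1, 9.99 with LOS2, 5.94 with TMF, 5.91 with LSH1 and 3.46 with G1.

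The counts of the 16 depend on the outer flank. With a flank of 1000 bp, LSH2 had 5 genes, LSH3 4, LOS1 5, TMF 4, LSH1 3 and G1 0, while LOS2 kept 9. Among genes of these lengths the fall was smaller for LSH1, LSH2, LSH3, G1, LOS1 and TMF, to 24.2%, 34.6%, 26.6%, 13.2%, 24.2% and 23.1%, and larger for LOS2, to 43.8%. Assigning each window to its nearest protein-coding gene alone also left 5 genes for LSH2, 4 for LSH3, 5 for LOS1, 7 for LOS2, 4 for TMF, 3 for LSH1 and 0 for G1.

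**Figure D1:**
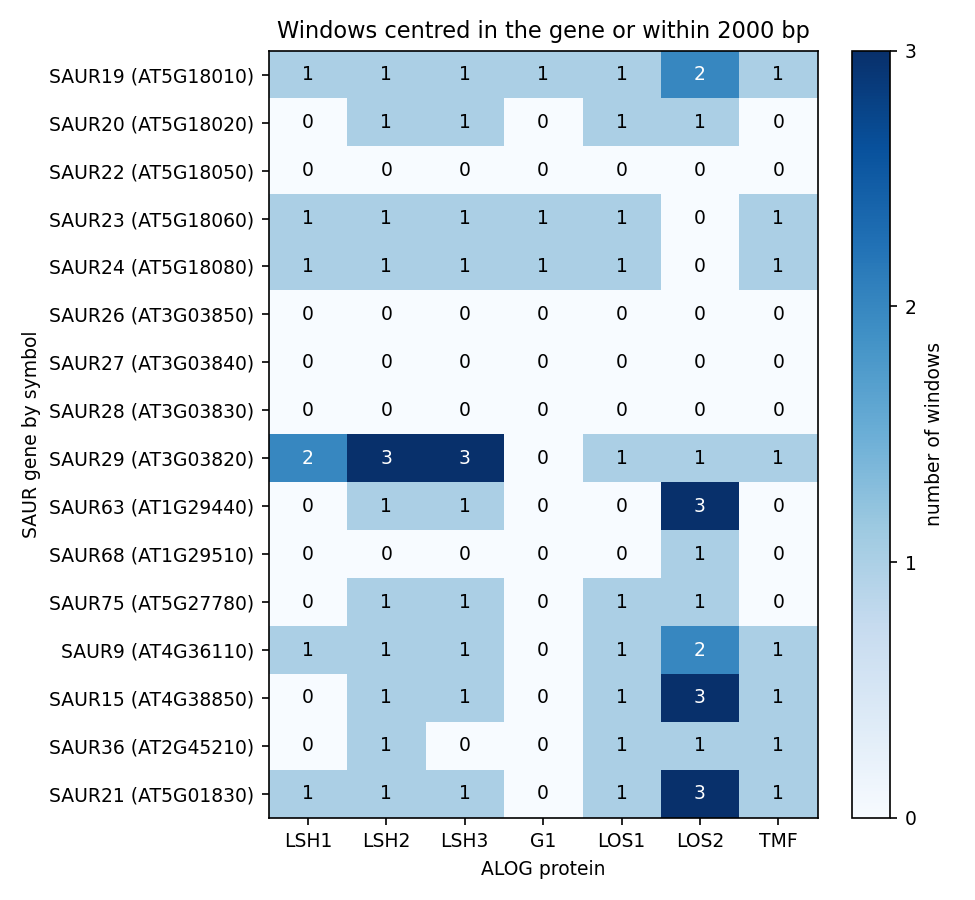
Number of windows of each ALOG protein (columns) centred in each of the 16 SAUR genes or within 2000 bp (rows, with locus tags); darker cells hold more windows, up to 3. SAUR22, SAUR26, SAUR27 and SAUR28 hold none, and G1 appears at SAUR19, SAUR23 and SAUR24 alone.

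One of the 16 genes, SAUR19, had windows of all 7 proteins (6.25%, 1.11 to 28.3%), against 22.6% of all genes and a length-weighted 2.06 genes. At 10 of the 16 genes 4 or more proteins were found (62.5%), against 58.3% of all genes and a length-weighted 6.43 genes. No window of any protein lay at 4 genes (25.0%, 10.2 to 49.5%), where all genes gave 13.4% and genes of these lengths 4.3. Merging windows that overlap across the lists gave 23 regions at the 16 genes, 14 of which were held by 2 or more proteins (60.9%, against 59.6% of all 39850 regions). The 9 regions of a single protein were 8 of LOS2 and 1 of LSH1. In the 14 shared regions the window centres of the different proteins spread over 4 to 66 bp, with a median of 12.5 bp.

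SAUR19, SAUR20, SAUR22, SAUR23 and SAUR24 belong to the SAUR19 subfamily on chromosome 5. SAUR19 protein is known to inhibit PP2C-D phosphatases and to promote cell expansion. These genes are near-identical copies, and no source used here says how reads that match several copies were assigned, so windows inside such copies are uncertain. None of the 5 had a window centre in its own body. A body window of any protein was found at 55.1% of all genes and at 22.1% of genes with the lengths of the 16.

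SAUR19 (AT5G18010, 633 bp) had 2 windows of LOS2 and 1 of each other protein. Its region of all 7 proteins lay on chromosome 5 at 5961081 to 5961295 (counted from 1, on a genome build that no source used here names). The centres were 1577 to 1592 bp below SAUR19 and inside the neighbour VDD (AT5G18000). A LOS2 window at 5961946 to 5962145 was the closest to SAUR19, 727 bp away. SAUR20 (AT5G18020, 603 bp) had 1 window each of LSH2, LSH3, LOS1 and LOS2 and none of LSH1, G1 or TMF. They formed 1 region at 5967072 to 5967290, between genes and 386 to 405 bp above SAUR20. This region was shared with AT5G18030, whose synonym is SAUR21.

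SAUR22 (AT5G18050, 747 bp) had no window, and the closest centre, of G1, lay 3487 bp away. Of all protein-coding genes, 6.06% were farther from any window. SAUR23 (AT5G18060, 810 bp), the next gene, had 1 window of each protein but LOS2, in a region at 5978475 to 5978691 in the edge of AT5G18065. The LOS2 window of this region had its centre 2002 bp from SAUR23, just outside the limit, while the other 6 centres lay at 1985 to 1995 bp. By any overlap of 1 bp SAUR23 therefore counted with all 7 proteins. SAUR24 (AT5G18080, 626 bp) also had 1 window of each protein but LOS2, at 5981782 to 5982000 in the body of its neighbour DRT101. There the closest LOS2 centre was 5091 bp from the gene. The combination of all proteins but LOS2 was held by 183 of the 39850 regions (0.459%). The 3 genes with G1 windows thus carried them 1592, 1985 and 1787 bp from the gene, each within the body of another gene.

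**Figure D2:**
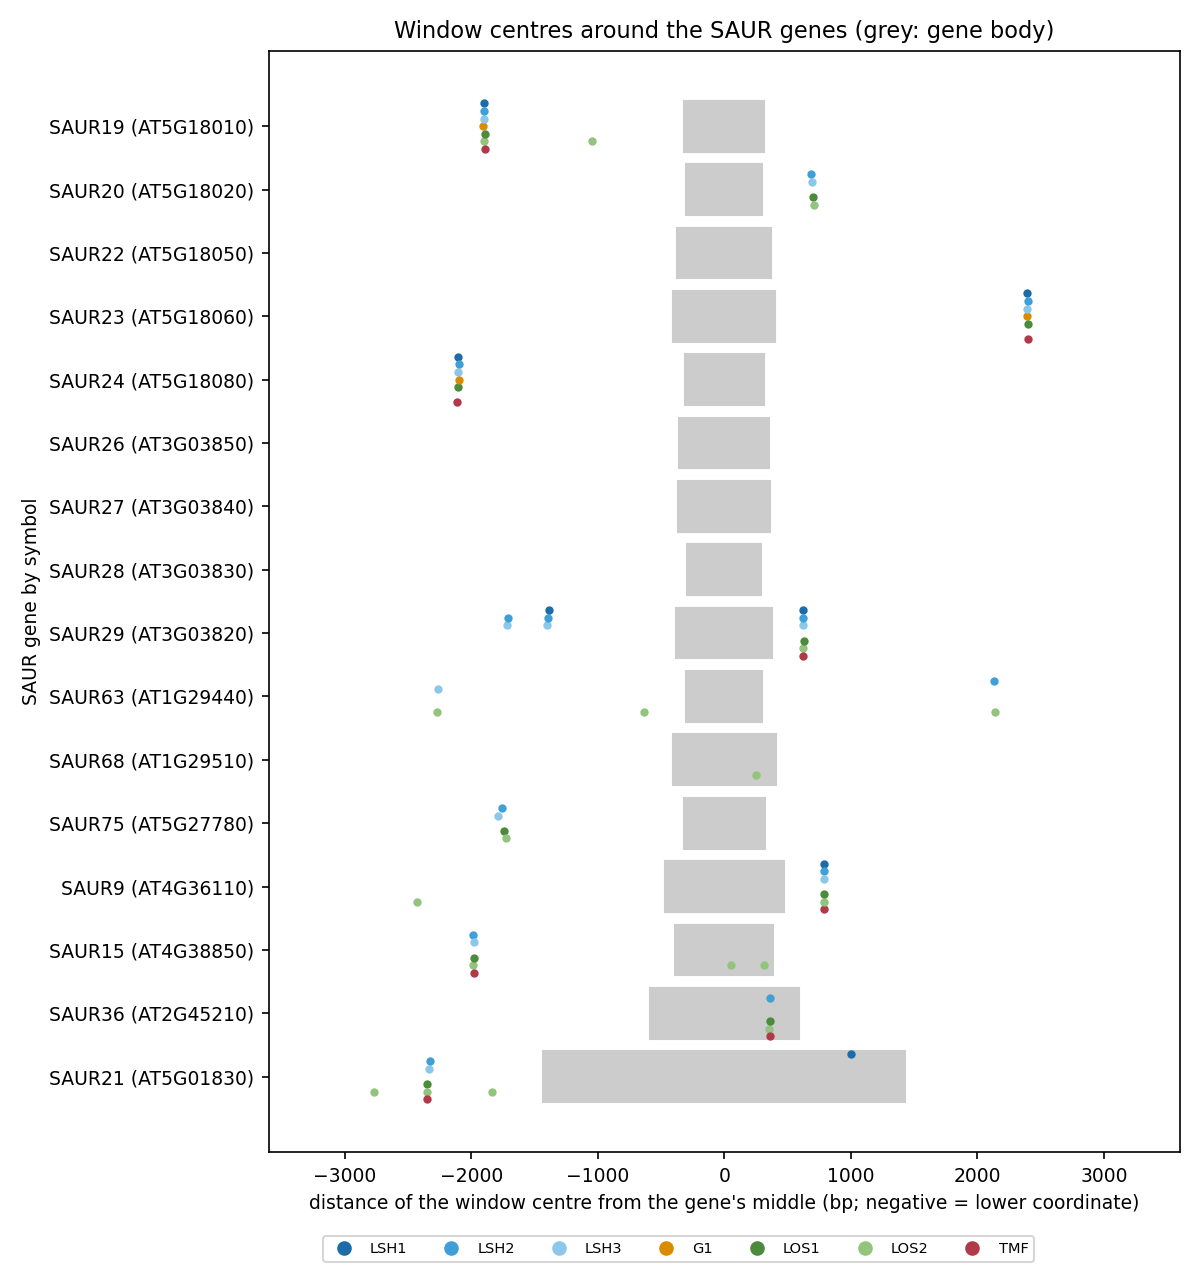
Centres of the windows around the 16 SAUR genes, as the distance in bp from the middle of each gene (horizontal axis; strand was not used, so negative means the lower coordinate), with a grey bar for the gene body and a colour for each protein. Points of several proteins stack at nearly the same distance, and most stacks lie outside the grey bars.

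SAUR26, SAUR27, SAUR28 and SAUR29 form an array on chromosome 3. SAUR26, SAUR27 and SAUR28 are known for growth responses to temperature that vary among Arabidopsis accessions. These 3 genes (AT3G03850 of 712 bp, AT3G03840 of 730 bp and AT3G03830 of 587 bp) had no window of any protein. The nearest centres lay 2178 bp from SAUR26 (LSH2), 3349 bp from SAUR27 (LOS1) and 2253 bp from SAUR28 (LOS1). Of genes between 587 and 1177 bp long, the lengths of the 16 without the longest gene, 21.3%, 11.2% and 20.6% were farther from any window.

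All windows of this array were at its end, at SAUR29 (AT3G03820, 760 bp). SAUR29 had 11 windows, the highest count of the 16, namely 3 each of LSH2 and LSH3, 2 of LSH1, 1 each of LOS1, LOS2 and TMF, and 0 of G1. All proteins but G1 shared a region at 977615 to 977822, between genes and 240 to 248 bp above SAUR29. The same region was the nearest one to SAUR27 and SAUR28. Below SAUR29, inside EDA30 (AT3G03810), lay a region of LSH1, LSH2 and LSH3 alone at 975597 to 975811 and one of LSH2 and LSH3 alone at 975282 to 975485. The 2 regions without LOS windows and the region with them thus lay on opposite sides of the gene.

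SAUR63 promotes hypocotyl and stamen filament elongation, and SAUR68 and SAUR75 are of the same subfamily. SAUR63 (AT1G29440, 602 bp) had 3 windows of LOS2 and 1 each of LSH2 and LSH3, and none of LSH1, G1, LOS1 or TMF. Its regions lay on chromosome 1 at 10302434 to 10302643 (LSH3 and LOS2), 10304070 to 10304269 (LOS2) and 10306842 to 10307048 (LSH2 and LOS2). The LOS2 window at 337 bp was closest, and the others were 1833 to 1973 bp away. SAUR68 (AT1G29510, 817 bp) had a single LOS2 window, in its body at 10322980 to 10323179, and the nearest windows of the other proteins were 3635 to 3650 bp away. SAUR75 (AT5G27780, 643 bp) had 1 window each of LSH2, LSH3, LOS1 and LOS2, at 9837243 to 9837508 on chromosome 5 inside AT5G27770, 1403 to 1469 bp away. Its centres spread over 66 bp, the widest spread among the 14 shared regions. SAUR20 and SAUR75 had the same 4 proteins, a set found alone at 0.762% of all genes. SAUR63, SAUR68 and SAUR75 all had LOS2 windows, which reached 77.6% of all genes. They lacked windows of LSH1, G1 and TMF, as SAUR20 did. LSH1 windows reached 53.3% of all genes and a length-weighted 37.0%, G1 windows 32.7% and 21.6%, and TMF windows 52.8% and 37.1%. Most genes of such lengths thus lack each of them. Some genes near SAUR63 and SAUR68 on chromosome 1 that carry a SAUR name as a synonym had such windows. SAUR61 had an LSH1 window, and AT1G29490 (synonym SAUR68) had 1 window of each of the 7 proteins.

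SAUR9, SAUR15 and SAUR36 lie apart from the other members. SAUR9, like SAUR19, inhibits PP2C-D phosphatases. SAUR9 (AT4G36110, 940 bp) had 2 windows of LOS2 and 1 each of LSH1, LSH2, LSH3, LOS1 and TMF, with 0 of G1. A region of these 6 proteins lay on chromosome 4 at 17091089 to 17091295, between genes and 315 to 322 bp above SAUR9. SAUR9 and SAUR29 were the members by symbol with a region of 6 proteins within 500 bp of the gene.

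SAUR15 (AT4G38850, 773 bp), first described as SAUR-AC1, promotes root branching in response to auxin. It had 3 windows of LOS2 and 1 each of LSH2, LSH3, LOS1 and TMF, and none of LSH1 or G1. Its body held 2 windows of LOS2 alone, at 18126399 to 18126598 and 18126654 to 18126853 on chromosome 4. The region of 5 proteins, at 18124359 to 18124568, lay 1588 to 1598 bp below and within CRK26. SAUR36 (AT2G45210, 1177 bp), also named SAG201, promotes leaf senescence. Its windows, 1 each of LSH2, LOS1, LOS2 and TMF, lay in its body on chromosome 2 at 18642408 to 18642615, with centres within 8 bp. It was the member by symbol whose own body held windows of more than 1 protein.

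The gene AT5G01830 carries the symbol SAUR21 but stands apart in the table. It is 2865 bp long, whereas the other 15 are 587 to 1177 bp, and SAUR21 is also a synonym of AT5G18030 in the SAUR19 array. AT5G01830 is a member by its symbol alone, and whether it encodes a SAUR protein was not examined. AT5G01830 had 3 windows of LOS2, 1 each of LSH1, LSH2, LSH3, LOS1 and TMF, and 0 of G1. A region of 5 proteins lay on chromosome 5 at 319333 to 319558, 890 to 916 bp below the gene, and the LSH1 window lay in the body at 322681 to 322880. Without it, LSH2 had 10 of 15 genes, LSH3, LOS1 and LOS2 9 each, TMF 7, LSH1 5 and G1 3. A body window of any protein was then found at 3 of 15 genes (length-weighted 2.79).

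**Figure D3:**
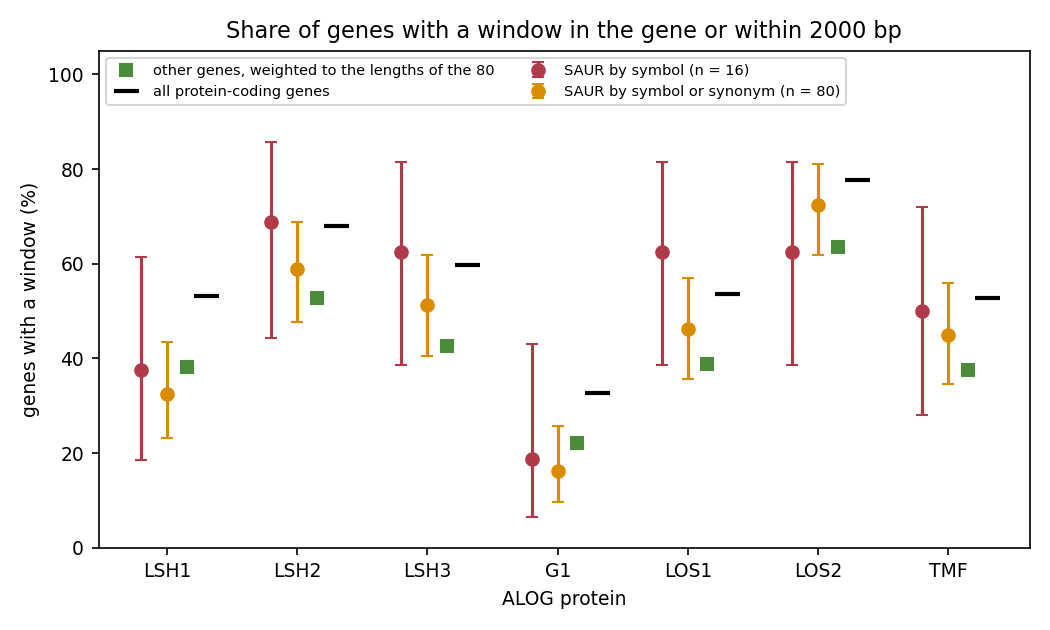
Share of genes (vertical axis, percent) that each protein's windows reached, counting 2000 bp on both sides: the 16 SAUR genes and the 80 SAUR genes with 95% Wilson intervals, other genes weighted to the lengths of the 80 (squares) and all protein-coding genes (black lines). For LSH2, the 80 genes gave 58.8%, the length-weighted share was 52.8% and all genes gave 67.9%.

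Within the 16 genes no window was counted for more than 1 gene, although 3 arrays of overlapping flanks hold 8 of them (SAUR26 to SAUR29, SAUR19 with SAUR20, and SAUR22 with SAUR23). With each array taken as 1 locus there were 11 loci. LSH2 windows were found at 10 of them, LSH3, LOS1 and LOS2 windows at 9 each, TMF windows at 8, LSH1 windows at 6 and G1 windows at 3. No locus was then without a window. The 4 genes without windows thus all had an array neighbour with windows. An array joins several genes and flanks into 1 longer interval, so it holds more windows by construction. Other genes were not joined in this way, so the counts over 11 loci have no background.

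Most windows counted for the 16 genes were not in these genes. Of 71 windows, 8 lay in the SAUR body (11.3%), 34 (47.9%) in the body of another protein-coding gene and 29 (40.8%) between genes. At other genes of 587 to 1177 bp, 16.7% of the counted windows lay in the gene's own body, so a majority outside the gene was usual at such lengths. Bodies with a window were those of SAUR15, SAUR36, SAUR68 and AT5G01830, 4 of 16 (25.0%, 10.2 to 49.5%) against 55.1% of all genes and a length-weighted 3.54 genes. For single proteins the body held LOS2 windows at 3 genes, LSH1, LSH2, LOS1 and TMF windows at 1 each, and LSH3 and G1 windows at 0 of 16 (upper Wilson bound 19.4%). Weighted to the lengths of the 16, other genes gave 2.3 genes for LOS2, 1.65 for LSH1, 1.87 for LSH2, 1.3 for LOS1, 1.27 for TMF, 1.54 for LSH3 and 0.88 for G1, and each length-weighted share was inside the SAUR interval. Over all genes, which are longer, the body shares were 43.1% for LOS2, 29.3% for LSH1, 36.1% for LSH2, 26.9% for LOS1, 27.2% for TMF, 32.5% for LSH3 and 16.7% for G1.

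The 64 genes known as SAUR through a synonym were counted in the same way. Of the 80 genes together, LOS2 windows were found at 58 (72.5%, 61.9 to 81.1%), LSH2 at 47 (58.8%, 47.8 to 68.9%), LSH3 at 41 (51.2%, 40.5 to 61.9%), LOS1 at 37 (46.2%, 35.7 to 57.1%), TMF at 36 (45.0%, 34.6 to 55.9%), LSH1 at 26 (32.5%, 23.2 to 43.4%) and G1 at 13 (16.2%, 9.75 to 25.8%). The length-weighted numbers of genes were 50.9, 42.3, 34.2, 31.0, 30.1, 30.6 and 17.7 in the same order. LOS2, LSH2, LSH3, LOS1 and TMF thus had more of the 80 genes than length alone gave, and LSH1 and G1 fewer. Each length-weighted share remained inside the SAUR interval (for LOS2 63.6%, for LSH1 38.3%).

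In the gene bodies the 80 genes held few windows. A body window of any protein was found at 7 genes (8.75%, 4.3 to 17.0%), against a length-weighted 19.0 genes. The length-weighted share, 23.8%, was above this interval. By single protein it was above the interval for LSH1, LSH2, LSH3, G1 and LOS2, and inside it for LOS1 and TMF. How reads that match several close copies were assigned is unknown, and its part in these counts was not tested. Among the 64 genes of the synonyms the number was 3 (4.69%, 1.61 to 12.9%; length-weighted 15.5), namely SAUR6, SAUR7 and SAUR34. Over the 7 lists together the bodies of the 80 held 0.223 windows per kb, and their flanks 1.08 per kb. The 4021 other genes between 587 and 1177 bp long had 0.813 per kb in the body and 0.914 per kb in the flanks. The first 500 bp outside the 80 genes held 1.14 windows per kb, against 0.739 per kb outside those other genes. From 500 to 1000 bp the values were 1.15 and 0.953, from 1000 to 1500 bp 0.662 and 0.993, and from 1500 to 2000 bp 1.38 and 0.971. Density at the 80 genes was thus lower in the body and from 1000 to 1500 bp, higher in the other steps, and highest in the outermost step. The 80 genes span 396 to 2865 bp, a wider range than that of the other genes. The densities count a window once for each gene it is near, so 305 windows at the 80 genes entered 362 times. Windows of several proteins at 1 site also count separately, and the 305 windows lay in 99 regions. The steps from 1000 to 1500 bp and from 1500 to 2000 bp held 53 and 110 counted windows. Single sites of many proteins therefore weigh on these densities.

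**Figure D4:**
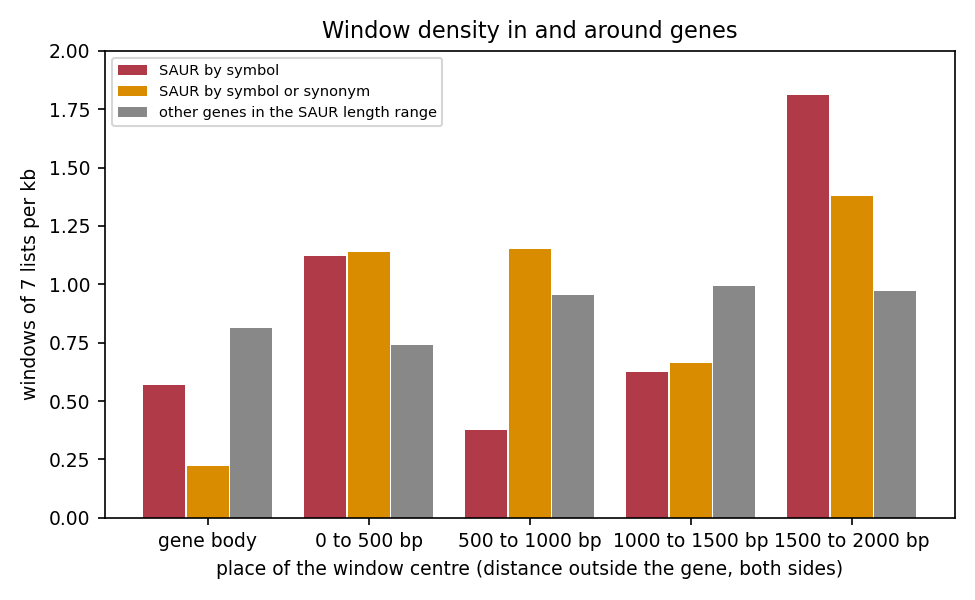
Windows of the 7 lists per kb (vertical axis) in the gene body and in 500 bp steps outside it, both sides together, for the 16 SAUR genes, the 80 SAUR genes and 4021 other genes of 587 to 1177 bp. Each protein's window counts separately, also where several lie at the same site. The 80 SAUR genes have 0.223 windows per kb in the body and 1.14 in the first 500 bp outside, the other genes 0.813 and 0.739, while the highest step of the 80 is 1500 to 2000 bp with 1.38 against 0.971.

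Windows of all 7 proteins were found at 9 of the 80 genes (11.2%), against a length-weighted 10.4. Beside SAUR19 these were SAUR1, SAUR2, SAUR6, SAUR7, SAUR38, SAUR50, SAUR69 and AT1G29490, whose synonym is SAUR68. SAUR50 acts in the light-driven opening of cotyledons. Of 13 genes with LOS2 windows alone (16.2%, against 8.81% of all genes and 11.2% by length), SAUR68 has the symbol. The other 12 are SAUR4, SAUR8, SAUR10, SAUR30, SAUR41, SAUR43, SAUR45, SAUR47, SAUR56, SAUR66, SAUR72 and SAUR78. All lists but G1 reached 11 genes (13.8%, against 12.9% of all genes and 9.09% by length), among them SAUR9, SAUR29 and AT5G01830. All lists but LSH1 and G1 reached 7 genes (8.75%, against 6.61% of all genes and 5.94% by length), among them SAUR15. No window was found at 17 genes (21.2%, 13.7 to 31.4%; length-weighted 20.2). These were SAUR13, SAUR16, SAUR22, SAUR25, SAUR26, SAUR27, SAUR28, SAUR31, SAUR33, SAUR35, SAUR57, SAUR59, SAUR60, SAUR70, SAUR73, SAUR76 and SAUR79.

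Genes with related roles did not share 1 pattern. SAUR40, SAUR41, SAUR71 and SAUR72 form the SAUR41 subfamily, which promotes cell expansion. SAUR41 and SAUR72 had windows of LOS2 alone, SAUR71 of LSH2, LSH3 and TMF, and SAUR40 of LSH2, LSH3, LOS1, LOS2 and TMF. None of these 4 genes had a window of LSH1 or G1, but many genes lack them. LSH1 windows reached 53.3% of all genes and 38.3% of genes with the lengths of the 80, and G1 windows 32.7% and 22.1%. Among genes that light raises in cotyledons, SAUR14 had windows of 5 proteins, SAUR50 of 7 and SAUR16 of none. SAUR17, which acts in the apical hook, had windows of 6 proteins, and SAUR32, also a hook gene, of LSH2, LOS1, LOS2 and TMF. SAUR10 had LOS2 windows alone and SAUR49 LSH1 windows alone. SAUR76 and SAUR79 had no window, SAUR77 had 6 proteins and SAUR78 had LOS2 alone. SAUR37 had windows of all proteins but LOS2, the set also counted for SAUR23 and SAUR24. This set occurred at 79 of all genes (0.288%). SAUR23 belongs to it only through the limit, since the nearest LOS2 centre lay 2002 bp away.

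**Figure D5:**
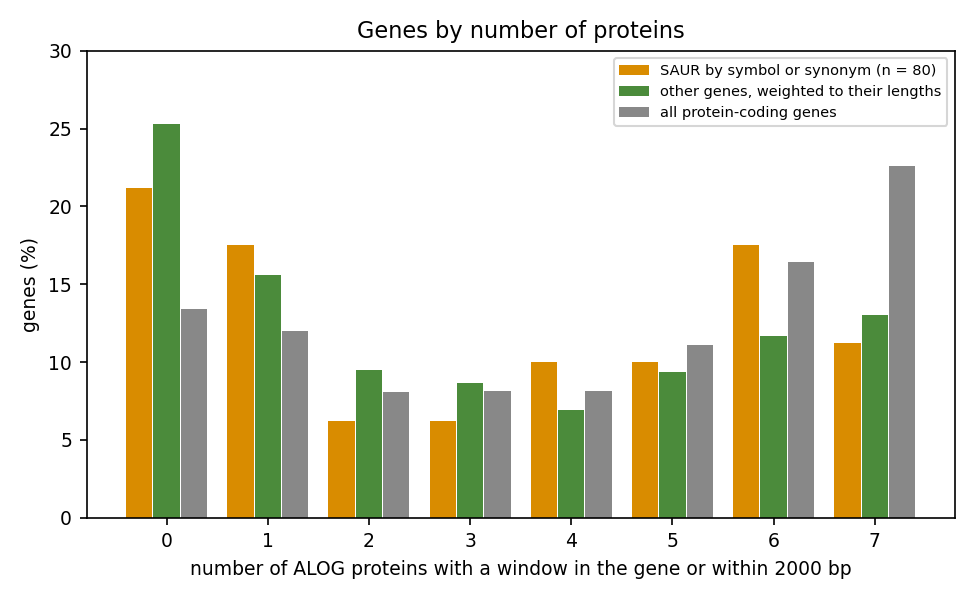
Share of genes (vertical axis, percent) by the number of ALOG proteins whose windows reached them (horizontal axis), for the 80 SAUR genes, for other genes weighted to their lengths and for all protein-coding genes. Of the 80 SAUR genes 21.2% had no protein and 11.2% had all 7, against 25.3% and 13.0% of genes of their lengths and 13.4% and 22.6% of all genes.

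Sharing of windows between SAUR genes appeared once the 64 genes were included. Of 305 windows, 48 were counted for more than 1 SAUR gene, and 18 genes shared windows. SAUR6 and SAUR7 shared 3 regions on chromosome 2, among them one of all 7 proteins at 9082975 to 9083197, and SAUR6 shared with SAUR12 a region of every protein but G1 at 9087276 to 9087490. SAUR1 and SAUR2 shared a region of all 7 proteins on chromosome 4 at 16592075 to 16592297, between both genes. SAUR1, SAUR2 and SAUR3 shared one of LSH2, LOS1, LOS2 and TMF at 16593650 to 16593875, and SAUR3 and SAUR4 one of LOS2. The 3 regions of SAUR15 were all shared with SAUR14, and the single region of SAUR20 with AT5G18030. The 3 regions of SAUR63 were each shared by 3 genes among SAUR61, SAUR62, SAUR63, SAUR64 and SAUR65. The LOS2 window in SAUR68 also counted for SAUR66. At SAUR1 and SAUR2, 1 site of all proteins therefore gave 2 genes with windows of all 7. The region of all 7 proteins shared by SAUR6 and SAUR7 likewise counted for both genes.

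Other families of auxin response, chosen by symbol, were counted the same way. Aux/IAA genes encode repressors that auxin removes, ARF genes the factors they repress, and GH3 genes enzymes that conjugate auxin. The number that other genes of the same lengths gave stands in brackets. At the 24 Aux/IAA genes LSH1 windows were found at 15 (12.1), LSH2 at 18 (15.5), LSH3 at 12 (13.4), G1 at 8 (7.18), LOS2 at 20 (18.0) and TMF at 12 (11.7). LOS1 windows were found at 11 of them (45.8%, against a length-weighted 50.1%). Aux/IAA genes thus lay above the length-weighted number for LSH1, LSH2, G1, LOS2 and TMF and below it for LSH3 and LOS1. At 22 genes with an ARF symbol, 2 of which the table names as ADP-ribosylation factors, the numbers were 11 for LSH1 (14.2), 17 for LSH2 (17.5), 14 for LSH3 (16.1), 8 for G1 (9.17), 12 for LOS1 (14.4), 16 for LOS2 (19.2) and 11 for TMF (14.3). At 5 GH3 genes they were 2 for LSH1 (3.0), 3 for LSH2 (3.75), 2 for LSH3 (3.37), 1 for G1 (1.86), 2 for LOS1 (2.98), 4 for LOS2 (4.19) and 1 for TMF (2.95). ARF and GH3 genes thus lay below the length-weighted number for every protein. In all 3 families the length-weighted share was inside the Wilson interval for each protein, except LOS2 at the ARF genes (51.8 to 86.8%, against 87.3%). For LSH1 the number was lower than by length at the 80 SAUR genes (26 against 30.6), the ARF and the GH3 genes. It was higher at the Aux/IAA genes, and at the 16 SAUR genes it was near it (6 against 5.91).

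All 7 proteins were found at 5 Aux/IAA genes (20.8%, length-weighted 19.3%), 7 genes with an ARF symbol (31.8%, length-weighted 31.5%) and 1 GH3 gene (length-weighted 26.2% of genes), against 22.6% of all genes. No window was found at 1 Aux/IAA gene (length-weighted 3.52), 4 genes with an ARF symbol (1.36) and 1 GH3 gene (0.4). These 4 ARF genes all carry nearby locus tags on chromosome 1, so they may not be independent. The symbol AHA with digits, used for a family of proton pumps, matched 1 gene, AHA10, which had all 7 (length-weighted 41.6% of genes). Whether AHA10 is a pump on which SAUR proteins act was not examined. The differences between these families and the SAUR genes were not tested.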

How the data were processed

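The authors' deposited files give windows as a chromosome, a start and an end; start and end are the sole measured columns, and every window is 200 bp wide. There is no score, read count or summit. Per the submitters' processing notes, Bowtie2, SAMtools and MACS2 were used; no source used here gives versions, thresholds, the handling of reads that match several places or the build. Per the series' design text, peaks present in all 3 replicates were kept, so a list's length reflects its weakest replicate and the depth is unknown.

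Gene names and positions came from the RefSeq table of TAIR10.1, which has no strand. To check that both share coordinates, windows were moved: 71.1% lay in protein-coding genes as deposited, 67.4% when moved by 1000 bp up or down. Window centres were counted in genes with 2000 bp on both sides. Length-weighted shares are the shares of all other protein-coding genes in 10 length classes, averaged with the SAUR genes' numbers per class as weights. Arrays are genes whose flanks overlap. No test between proteins was made. Functions were tested on simulated lists with planted windows. The tools were scipy 1.17.1, pandas 2.3.3 and numpy 2.4.6 under Python 3.11.15.

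The members and lists were chosen with earlier results of these data known. All members are named, with every array and, of the 64 synonym genes, those with all 7 proteins, none, or a known role; genes of LOS2 alone, SAUR37 and the genes with body windows were named after their values were seen. Of the other families AHA10 alone is named, as the sole match to its symbol. Planned motif counts in promoters were not made, because no sequence was used here, and the side upstream or downstream was replaced by the lower or higher coordinate.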

Additional observations from a re-analysis of the deposited data

How the results depend on the processing

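Counts for the 16 genes moved most with the interval. LSH1, LSH2, LSH3, G1, LOS1 and TMF had 3, 5, 4, 0, 5 and 4 genes with a flank of 1000 bp, 3, 4, 3, 0, 4 and 3 with 500 bp, and 3, 5, 4, 0, 5 and 4 by the nearest gene; by gene body they had 1, 1, 0, 0, 1 and 1, and LOS2 3. Genes with all 7 proteins numbered 0 by each of these intervals and among genes without an overlapping SAUR flank, 2 by any overlap of 1 bp, 4 without the list of G1, 3 without that of LOS2, and 9 of 80 with synonyms. Genes without a window numbered 7, 8 and 12 at 1000 bp, 500 bp and gene body, 9 by the nearest gene, 0 of 11 loci and 0 of 8 genes without an overlapping SAUR flank. Narrower intervals hold fewer windows by construction. Length-weighted shares, in the order of the 3 LSH proteins, G1, both LOS proteins and TMF, were 24.2, 34.6, 26.6, 13.2, 24.2, 43.8 and 23.1% at 1000 bp, 16.2, 23.1, 17.8, 8.87, 15.6, 30.6 and 14.8% at 500 bp, and 10.3, 11.7, 9.64, 5.5, 8.11, 14.4 and 7.93% by gene body. With any overlap they were 38.1, 53.0, 43.1, 22.4, 39.2, 63.9 and 38.2%. With 20 length classes they were 43.1% for LSH3, 39.1% for LOS1, 63.5% for LOS2 and 38.2% for TMF, and with the 100 genes nearest in length 43.1% for LSH3, 39.7% for LOS1 and 39.2% for TMF. Leaving out AT5G01830, synonyms included and arrays as loci kept the shares per protein within 1.5 times. Settings without AT5G01830, and synonyms for the genes of all 7 and of no protein, were chosen after the data were seen. No paired analysis was possible because each protein has 1 consensus list. Depth and signal over background are unknown, so a gene without a window is below a limit that cannot be stated.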
